A study of Mus musculus with 6 samples.

Results

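Macrophage identity genes are genes whose transcripts are used to recognise white blood cells in general and tissue macrophages in particular. The 10 studied here, Ptprc, Laptm5, Tyrobp, Fcer1g, Cd68, Spi1, Aif1, Cx3cr1, Mrc1 and Lyve1, were picked by gene symbol from the 24421 symbols of each count table. All 10 had counts in all 6 libraries and all 10 passed the filter on low counts, out of 13848 genes tested.

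Transcripts were counted as 3' end tags in mouse samples of the strain C57BL/6N at embryonic day 9.5, labelled as whole embryo. The Lphn2_KO group held 3 samples labelled as homozygous for a knockout of Lphn2, now named Adgrl2, an adhesion receptor that the series presents as a surface marker of cardiac progenitors. The WT group held 3 wild type samples, and no other allele or treatment is named for either group. The labels state neither which part of Lphn2 was deleted, nor a promoter or Cre, nor whether a sample was 1 embryo. Levels are given in TMM-normalised CPM, counts scaled to the size of their library, and fold changes as log2 of Lphn2_KO over WT with a standard error (SE) or a 95% interval.

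Macrophages of the early embryo arise from progenitors of the yolk sac and spread into the tissues, where they take up dying cells and debris. The uterine lining around the embryo has its own white blood cells, of which natural killer cells are the most numerous in early mouse pregnancy. CD45, Laptm5 and the adaptors Tyrobp and Fcer1g are made by many kinds of white blood cells, natural killer cells among them. Cx3cr1, Mrc1 and Lyve1 are better known from tissue macrophages, although Lyve1 and Mrc1 are also made by lymphatic and some other endothelium.

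Total counts were 23887717, 15275299 and 14476809 in Lphn2_KO replicates 1 to 3 and 26700584, 18352150 and 36213611 in WT replicates 1 to 3. Adgrl2 was read at 5.49, 1.67 and 2.78 CPM in Lphn2_KO libraries and at 10.9, 7.56 and 15.96 CPM in WT libraries, which did not pass the threshold (edgeR adjusted p = 0.194), and 3' tags may lie outside the deleted part. Against the label of whole embryo, the decidual gene Prl8a2, made by the maternal lining, stood at 1279 to 5335 CPM in Lphn2_KO and at 14989 to 28746 CPM in WT libraries. Lphn2_KO replicate 1 stood apart from the other 2 of its group: the leading principal component (54.1% of the variance) put it at -14.3, those 2 at 99.7 and 88.0, and the WT libraries between -73.6 and -42.4. Its summed CPM over 16 trophoblast markers was 7198, against 122 and 326 in Lphn2_KO replicates 2 and 3. The description codes of the samples start with 45, except that of WT replicate 1, which starts with 32. What this number marks is not stated, so the comparison within the other 5 samples is given beside the results. In whole samples, a difference in the number of cells of a type and a difference in RNA per cell cannot be told apart.

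Ptprc, Laptm5, Tyrobp and Fcer1g, which many white blood cells make, stood higher in Lphn2_KO than in WT libraries, by 2.32 to 2.72 times. Cd68, of the macrophage lysosome, also had a higher mean, 107 ± 19.1 CPM in Lphn2_KO and 66.8 ± 29.3 CPM in WT libraries (SD, n = 3 each), with overlap between the groups. The means of the other 5 were not higher: that of Mrc1 was 2.05 CPM in Lphn2_KO and 5.18 CPM in WT libraries, and Spi1, Aif1, Cx3cr1 and Lyve1 overlapped widely. Whether these sets of members differ from each other was not tested. No member passed the threshold over all genes in either direction with edgeR's quasi-likelihood test (adjusted p under 0.05), where 0% of all genes were called higher and 0.0505% lower. DESeq2 called 4 members higher (Ptprc, Laptm5, Tyrobp and Fcer1g) and 0 lower, against 3.39% and 2.79% of all genes, and limma-voom called 0. Without adjustment, edgeR gave a p under 0.05 to the same 4 on the higher side and, on the lower side, to Mrc1, against 8.68% and 6.86% of all genes. In 3 of the 10, every Lphn2_KO value lay above every WT value (12.1% of all genes), and in 0 of the 10 below (9.39%). The median log2 fold change of the 10 was 0.31, beside -0.04 over all genes tested.

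**Figure D1:**
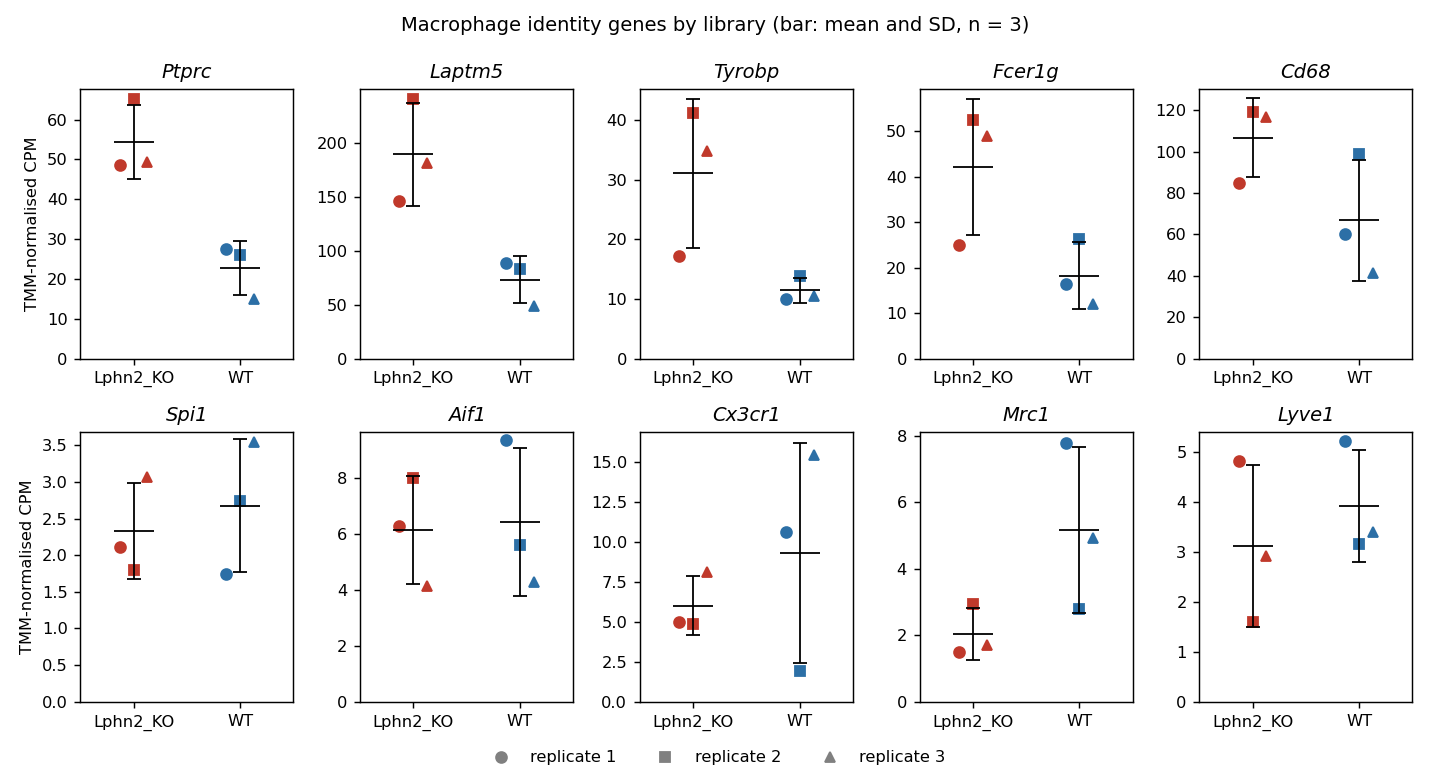
Level of each macrophage identity gene in TMM-normalised CPM (y axis from 0, a scale of its own in each panel) in the 3 Lphn2_KO and the 3 WT libraries; points are libraries, and the black marks give mean and SD (n = 3). Ptprc, Laptm5 and Tyrobp have no overlap between the groups, while the 5 genes of the lower row overlap.

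Upstream sequences are shown for Ptprc and Laptm5, 2 members with higher values in Lphn2_KO libraries, and for Mrc1, the member with the most negative log2 fold change. Each is the 250 bases before a RefSeq transcript start (GRCm38.p6, the assembly of mm10), written 5' to 3' on the strand of the gene. The Ptprc window is chr1:138175306-138175555 on the minus strand, that of Laptm5 chr4:130913066-130913315 on the plus strand and that of Mrc1 chr2:14229164-14229413 on the plus strand. The Ptprc and Laptm5 windows lie inside the RefSeq spans of their genes, which begin further out than the starts used here, and the Mrc1 window lies outside its gene. Capitals mark GAGGAA or, on the other strand, TTCCTC, the purine-rich core that PU.1, the product of Spi1, is known to bind.
Ptprc: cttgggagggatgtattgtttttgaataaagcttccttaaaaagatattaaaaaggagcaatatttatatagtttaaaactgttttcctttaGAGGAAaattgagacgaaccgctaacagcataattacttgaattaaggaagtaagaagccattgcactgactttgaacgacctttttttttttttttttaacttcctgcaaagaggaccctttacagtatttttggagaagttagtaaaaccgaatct
Laptm5: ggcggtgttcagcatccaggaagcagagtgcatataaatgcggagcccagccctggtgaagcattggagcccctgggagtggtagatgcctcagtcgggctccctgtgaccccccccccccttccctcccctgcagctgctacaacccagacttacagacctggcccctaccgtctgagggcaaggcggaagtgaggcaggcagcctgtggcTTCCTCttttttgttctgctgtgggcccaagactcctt
Mrc1: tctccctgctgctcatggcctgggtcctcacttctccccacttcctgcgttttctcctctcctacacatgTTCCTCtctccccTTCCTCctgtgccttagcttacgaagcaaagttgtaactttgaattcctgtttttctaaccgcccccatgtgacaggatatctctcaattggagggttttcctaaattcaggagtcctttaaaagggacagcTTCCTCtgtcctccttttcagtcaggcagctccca
The core occurred 1 time before Ptprc, 1 time before Laptm5 and 3 times before Mrc1. RefSeq windows were matched for 7 of the 10 members, and 5 of the 7 genes had the core in at least 1 window (the 3 shown, Cd68 and Aif1). Counted by window, as in the share over all windows given below, 5 of 8 held it. A further Ptprc start had no match, nor had the windows of Fcer1g and Cx3cr1. Over all 32851 RefSeq windows of the same length, 23.3% held the core at least once and 0.429% at least 3 times. A match describes the letters of the window and does not show that a protein binds there.

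Ptprc (chromosome 1, 138062859 to 138175756, mm10) encodes CD45, the receptor phosphatase on the surface of white blood cells and their precursors. It was read at 48.6, 65.2 and 49.4 CPM in Lphn2_KO replicates 1 to 3 and at 27.5, 25.96 and 15.1 CPM in WT replicates 1 to 3. All 3 Lphn2_KO libraries lay above all 3 WT libraries, and WT replicate 3 was the lowest. The means were 54.4 ± 9.37 and 22.8 ± 6.79 CPM (SD, n = 3 each), a log2 fold change of 1.25 ± 0.27 (SE) that missed the threshold (edgeR adjusted p = 0.166). Within the samples whose code starts with 45, the log2 fold change was 1.41. The 6 counts of Ptprc shared a divisor of 3, so these counts may understate its counting error.

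Laptm5 (chromosome 4, 130912890 to 130936148) encodes a lysosomal membrane protein of blood cells that lowers the amount of antigen receptors. It stood at 146, 240.3 and 181 CPM in Lphn2_KO libraries and at 88.7, 82.6 and 48.2 CPM in WT libraries. The 6 libraries fell in the same order as for Ptprc, from Lphn2_KO replicate 2 at the top to WT replicate 3 at the bottom. Means of 189 ± 47.5 and 73.2 ± 21.8 CPM gave a log2 fold change of 1.37 ± 0.29 (SE; edgeR adjusted p = 0.166). Without Lphn2_KO replicate 1, Laptm5 passed the threshold (edgeR adjusted p = 0.0463, range over the alternatives 0.00105 to 0.574).

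Tyrobp and Fcer1g encode small membrane adaptors with an ITAM, the motif through which Fc receptors, natural killer receptors and Trem2 reach the kinase Syk. Tyrobp (DAP12, chromosome 7, 30413782 to 30417582) was read at 17.2, 41.3 and 34.8 CPM in Lphn2_KO libraries and at 9.93, 13.8 and 10.6 CPM in WT libraries. The groups did not overlap, but Lphn2_KO replicate 1 lay nearer to WT replicate 2 than to the other Lphn2_KO libraries. Its log2 fold change was the largest of the 10, 1.44 ± 0.35 (SE; edgeR adjusted p = 0.172), with means of 31.1 ± 12.5 and 11.4 ± 2.06 CPM. Without Lphn2_KO replicate 1 it was 1.74 and passed (edgeR adjusted p = 0.0236, range over the alternatives 0.00682 to 0.574).

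Fcer1g (chromosome 1, 171229572 to 171234349), the common gamma chain of Fc receptors, stood at 25.1, 52.5 and 48.97 CPM in Lphn2_KO libraries and at 16.3, 26.4 and 11.9 CPM in WT libraries. Lphn2_KO replicates 2 and 3 exceeded every WT library, while replicate 1 lay just under WT replicate 2. The log2 fold change was 1.21 ± 0.38 (SE; edgeR adjusted p = 0.222). Cd68 (chromosome 11, 69664213 to 69666170), a glycoprotein of the macrophage lysosome that other phagocytic cells also make, had 84.9, 119 and 117 CPM in Lphn2_KO libraries. In WT libraries it had 59.99, 98.96 and 41.5 CPM, so the groups overlapped in the same place as for Fcer1g. Its log2 fold change of 0.68 had an interval of -0.09 to 1.45 (edgeR adjusted p = 0.372), and its 6 counts shared a divisor of 2.

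The other 5 members had low counts. Mrc1 (chromosome 2, 14229414 to 14332023) encodes the mannose receptor CD206, which takes up glycoproteins and marks many tissue macrophages. It was read at 1.49, 2.93 and 1.71 CPM in Lphn2_KO libraries (38, 44 and 24 counts) and at 7.79, 2.80 and 4.94 CPM in WT libraries (215, 46 and 189 counts). WT replicates 1 and 3 lay above all the Lphn2_KO libraries, and WT replicate 2 lay among them. At these counts the exact 95% Poisson interval, which covers counting error only, ran from 2.13 to 3.94 CPM in Lphn2_KO replicate 2 and from 2.05 to 3.74 CPM in WT replicate 2. The log2 fold change was -1.35 ± 0.50 (SE; interval -2.53 to -0.16; edgeR adjusted p = 0.272). Within the samples whose code starts with 45 it was -0.92.

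Cx3cr1 (chromosome 9, 120048683 to 120068296), the fractalkine receptor of monocytes, microglia and other macrophages, stood at 4.98, 4.87 and 8.13 CPM in Lphn2_KO libraries and at 10.6, 1.89 and 15.4 CPM in WT libraries. The WT libraries held both its highest and its lowest value, so the spread within WT exceeded the difference between the groups (log2 fold change -0.64, interval -2.22 to 0.94; edgeR adjusted p = 0.678). Lyve1 (chromosome 7, 110850607 to 110862953), a hyaluronan receptor of lymphatic endothelium and of some perivascular macrophages, had 4.82, 1.6 and 2.92 CPM in Lphn2_KO libraries and 5.22, 3.17 and 3.40 CPM in WT libraries. Lphn2_KO replicate 1 reached the WT range and the other Lphn2_KO libraries lay under it. The log2 fold change was -0.33 with an interval of -1.47 to 0.82 (edgeR adjusted p = 0.769).

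Spi1 (chromosome 2, 91082374 to 91115759) encodes PU.1, the transcription factor that macrophages need to form. It was read at 2.12, 1.80 and 3.06 CPM in Lphn2_KO libraries and at 1.74, 2.74 and 3.55 CPM in WT libraries. With 27 to 54 counts in Lphn2_KO and 45 to 136 in WT libraries, its interval of -1.28 to 0.87 around a log2 fold change of -0.21 leaves a doubling in Lphn2_KO outside and a halving inside (edgeR adjusted p = 0.851). Aif1 (chromosome 17, 35170986 to 35176083), the actin-binding protein Iba1 by which macrophages and microglia are often stained, had 6.27, 8.00 and 4.13 CPM in Lphn2_KO libraries and 9.35, 5.61 and 4.26 CPM in WT libraries. The groups overlapped throughout, with a log2 fold change of -0.06 and an interval of -1.02 to 0.89 (edgeR adjusted p = 0.956). Its sign turned in 3 of the 16 alternatives and that of Spi1 in 1 of 15.

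**Figure D2:**
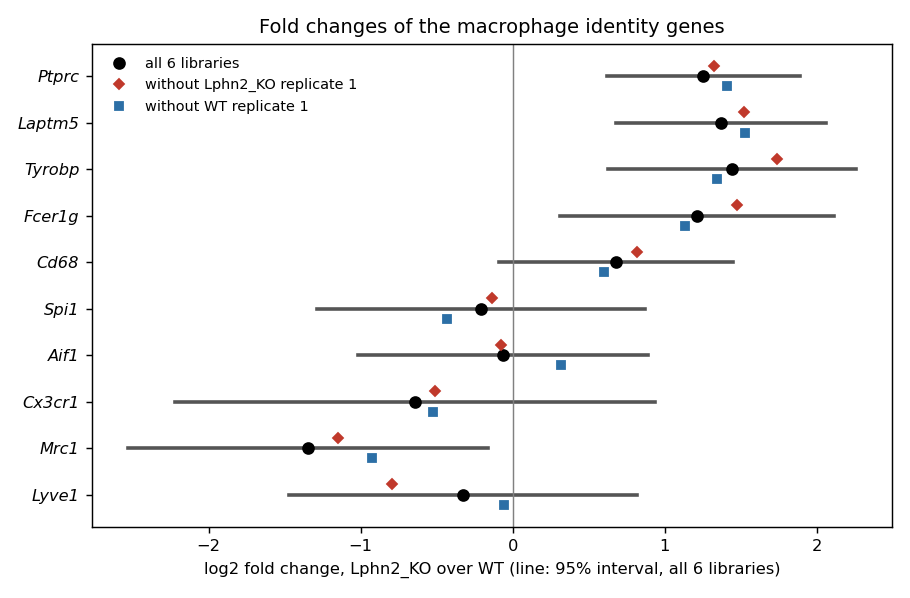
Log2 fold change of each gene, Lphn2_KO over WT (x axis); black points and lines give the estimate and its 95% interval from all 6 libraries, red diamonds the fit without Lphn2_KO replicate 1 and blue squares the fit without WT replicate 1. The intervals of Ptprc, Laptm5, Tyrobp and Fcer1g lie above 0, that of Mrc1 below 0, and the other 5 cross 0.

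Each level was also set against that of Ptprc in the same library, a ratio that scaling between libraries cannot change. Laptm5 followed Ptprc, at 3.01, 3.69 and 3.66 times its CPM in Lphn2_KO libraries and 3.23, 3.18 and 3.20 times in WT libraries. Tyrobp stood at 0.354, 0.633 and 0.704 of Ptprc in Lphn2_KO libraries and at 0.361, 0.531 and 0.701 in WT libraries, again overlapping throughout. The ratios of Fcer1g, Cd68 and Cx3cr1 to Ptprc overlapped as well.

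The other 4 of the 9 ratios were lower in every Lphn2_KO library than in every WT library, with no share over all genes to set beside this count. For Mrc1 the ratio was 0.0307, 0.0450 and 0.0346 in Lphn2_KO libraries, against 0.283, 0.108 and 0.328 in WT libraries. Aif1 stood at 0.129, 0.123 and 0.0837 of Ptprc in Lphn2_KO libraries, against 0.340, 0.216 and 0.283 in WT libraries. The same held for Lyve1 (0.0993, 0.0245 and 0.0592, against 0.190, 0.122 and 0.226). Spi1 had the smallest gap between the groups, at 0.0436, 0.0276 and 0.0620 of Ptprc in Lphn2_KO and 0.0632, 0.106 and 0.236 in WT libraries. Each of these 4 reached p = 0.1 in an exact two-sided permutation test, the smallest that 3 against 3 samples allow, and 0.225 when adjusted over the 9 ratios. The ratios share Ptprc and so are not independent of each other, and they show unequal change, not which gene changed. Ptprc itself was higher in every Lphn2_KO library, so a gene at an unchanged level also tends to give a lower ratio. How many of all genes would give such a ratio was not counted, so the 4 are not read as particular to these members.

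**Figure D3:**
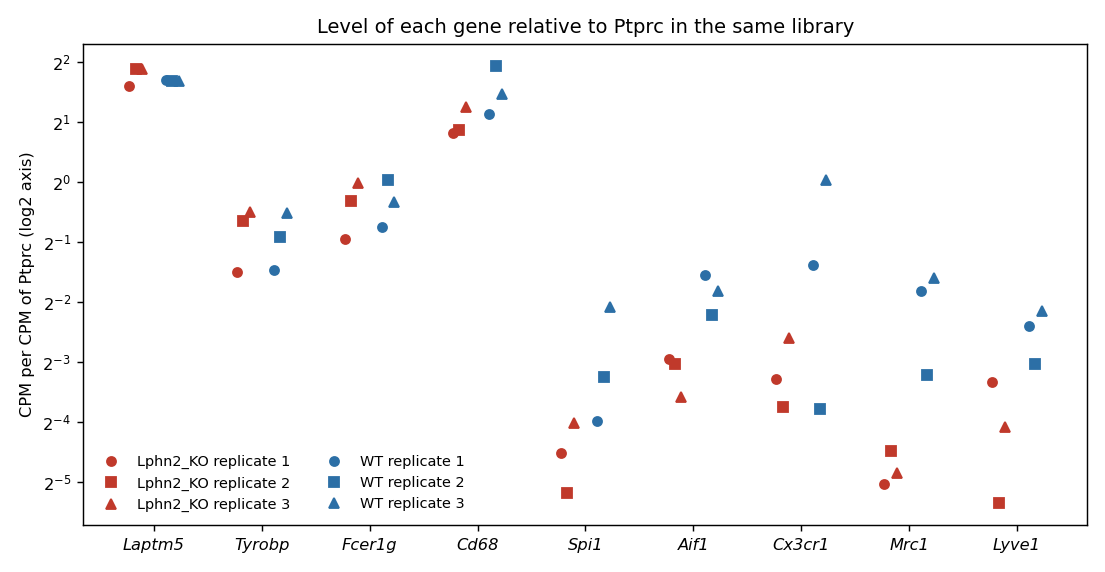
CPM of each gene per CPM of Ptprc in the same library (y axis, log2 scale); red marks are the 3 Lphn2_KO and blue marks the 3 WT libraries, with 1 shape per replicate number. Laptm5 lies between 3.01 and 3.69 in all 6 libraries, while Spi1, Aif1, Mrc1 and Lyve1 have all Lphn2_KO points below all WT points. Ptprc itself is higher in every Lphn2_KO library, and the share of all genes with such a ratio was not counted.

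Most other genes of white blood cells in general also stood higher in Lphn2_KO libraries. Of 21 such genes tested, 0 passed edgeR's threshold, 12 had an unadjusted p under 0.05 and DESeq2 called 6, all of them higher. Over all genes, 8.68% had such a p on the higher side and DESeq2 called 3.39% higher. Of the 21, 19 had a positive log2 fold change (46.6% of all genes did), and in 12 every Lphn2_KO value lay above every WT value, against 12.1% of all genes. Their median log2 fold change was 0.98. Their summed level overlapped, at 1022 to 1211 CPM in Lphn2_KO and 538 to 1269 CPM in WT libraries. The 2 with a negative log2 fold change, named after their values were seen, were Arhgdib and Lsp1. Arhgdib averaged 394 ± 62.1 CPM in Lphn2_KO and 448 ± 194 CPM in WT libraries, and Lsp1 94.4 ± 38.3 and 179 ± 99.3 CPM. Itgb2, the beta chain of the leukocyte integrins, averaged 11.5 ± 1.65 CPM in Lphn2_KO and 3.37 ± 1.70 CPM in WT libraries, a log2 difference of 1.78. Coro1a, an actin regulator of blood cells, averaged 32.9 ± 11.9 and 13.4 ± 3.28 CPM, and Cd52, a small surface glycoprotein, 70.9 ± 24.6 and 27.9 ± 9.94 CPM. Sash3, a lymphocyte adaptor, averaged 13.6 ± 3.51 CPM in Lphn2_KO and 5.70 ± 1.13 CPM in WT libraries.

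Most genes of a list of ITAM signalling and related receptors had higher means in Lphn2_KO libraries. Not all of them are partners of Tyrobp or Fcer1g. Among 19 tested, 17 had a positive log2 fold change, and the median was 0.74. All Lphn2_KO values were on top in 7 (12.1% of all genes) and below in 0 (9.39%). On the higher side, 0 passed edgeR's threshold, 6 had an unadjusted p under 0.05 (8.68% of all genes) and DESeq2 called 3 (3.39%). Hcst (DAP10), an adaptor encoded beside Tyrobp, averaged 7.75 ± 2.73 CPM in Lphn2_KO and 2.59 ± 0.676 CPM in WT libraries. Fcgr3, a low-affinity receptor for immunoglobulin G that signals through Fcer1g, averaged 39.3 ± 9.49 and 18.4 ± 6.50 CPM. Vav1, a signalling protein of blood cells downstream of Syk, averaged 13.5 ± 1.18 and 6.89 ± 0.92 CPM, and the adaptor Lcp2 (SLP-76) 8.90 ± 1.67 and 4.72 ± 0.13 CPM. The edgeR adjusted p of these 4 lay between 0.172 and 0.205.

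Transcription factors of myeloid and other blood cells were more often higher than lower in Lphn2_KO libraries. Of 16 tested, 12 had a positive and 4 a negative log2 fold change (46.6% of all genes were positive). The median was 0.56, with 8 above and 2 below without overlap (12.1% and 9.39% of all genes). The threshold of edgeR was passed by 0, and an unadjusted p under 0.05 was reached by 8 higher and 2 lower (8.68% and 6.86% of all genes). DESeq2 called 4 higher and 1 lower (3.39% and 2.79%). Irf8, a partner of PU.1 in monocyte development that natural killer cells also make, averaged 216 ± 59.9 CPM in Lphn2_KO and 87.8 ± 37.5 CPM in WT libraries. Gfi1, a repressor active in granulocyte and lymphoid cells, averaged 20.5 ± 4.88 and 6.76 ± 3.05 CPM. Cebpb, which macrophages and decidual cells make, averaged 622 ± 188 and 300.2 ± 57.5 CPM, and Irf5 14.3 ± 3.16 and 6.26 ± 2.18 CPM. Bach2, a repressor of lymphoid cells named after its values were seen, was among those below, at 3.07 ± 0.537 CPM in Lphn2_KO and 11.3 ± 11.6 CPM in WT libraries. Its values in WT replicates 1 to 3 were 4.67, 4.63 and 24.7 CPM, and DESeq2 did not call it (DESeq2 adjusted p = 0.0730).

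Surface receptors typical of macrophages differed in direction among themselves. Of 22 listed, 15 could be tested, 10 of them with a positive and 5 with a negative log2 fold change (46.6% of all genes were positive), and the median was 0.48. Without overlap, 3 lay above and 1 below, near the 12.1% and 9.39% of all genes. With edgeR 0 passed the threshold and 3 higher and 1 lower had an unadjusted p under 0.05 (8.68% and 6.86% of all genes). Csf1r, the receptor for the macrophage growth factor Csf1 that mouse trophoblast also makes, stood at 156, 58.3 and 116 CPM in Lphn2_KO libraries and at 291, 442 and 166 CPM in WT libraries (log2 fold change -1.45; edgeR adjusted p = 0.221, range over the alternatives 0.0161 to 0.586). It was the 1 receptor called by DESeq2, which called 2.79% of all genes lower, and its groups did not overlap. Ccr2, of monocytes, averaged 14.8 ± 1.32 CPM in Lphn2_KO and 7.56 ± 3.34 CPM in WT libraries. Axl, a receptor for dying cells, averaged 118 ± 33.3 and 76.6 ± 8.19 CPM, and Sirpa, the receptor for CD47, 338 ± 75.3 and 223 ± 50.3 CPM. Unlike Csf1r, Ccr2, Axl and Sirpa, some other receptors of the list were near 0. Adgre1 (F4/80) stood at 0.800 to 1.57 CPM in Lphn2_KO and 0 to 1.56 CPM in WT libraries. Itgam (CD11b) stood at 0.713 to 0.941 and 0.609 to 1.45 CPM, and both genes were named after their values were seen. Mertk, Timd4, Cd163 and Siglec1, also named after their values were seen, were among the 7 too low to test.

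C1q and lysosomal genes of phagocytes had 14 of 18 positive log2 fold changes and a median of 0.49. Without overlap, 4 lay above and 0 below (12.1% and 9.39% of all genes). On the higher side, 0 passed edgeR's threshold, 4 had an unadjusted p under 0.05 (8.68% of all genes) and DESeq2 called 1 (3.39%). Cyba, a subunit of the phagocyte oxidase, averaged 134 ± 36.1 CPM in Lphn2_KO and 70.5 ± 18.6 CPM in WT libraries, and its partner Ncf4 8.59 ± 3.86 and 3.27 ± 1.24 CPM. The lysosomal protease Ctss averaged 32.2 ± 6.01 and 20.7 ± 5.69 CPM, and the metal transporter Slc11a1 1.28 ± 1.03 and 0.322 ± 0.145 CPM. Antigen presentation genes of MHC class II were low in both groups, with a median of 0.25, and 0 of 10 tested above and 1 below without overlap, near the 12.1% and 9.39% of all genes. H2-Ab1, a class II chain, averaged 4.71 ± 1.43 CPM in Lphn2_KO and 3.70 ± 1.89 CPM in WT libraries. H2-DMa, which helps to load peptides, averaged 1.25 ± 0.580 and 0.851 ± 0.328 CPM, and Zbtb46, a factor of dendritic cells and endothelium, 2.12 ± 0.141 and 1.59 ± 0.768 CPM. Ciita, the class II regulator, had 0 counts in the 3 Lphn2_KO libraries, where 3 counts per library would be 0.118 to 0.214 CPM. It averaged 0.805 ± 0.362 CPM in WT libraries, at counts of 15, 20 and 25. These counts shared a divisor of 5 and may understate the counting error, so no bound on its fold change is given. Of the 10 class II genes, 1 (Ciita) had an unadjusted p under 0.05, on the lower side (6.86% of all genes). With edgeR 0 passed the threshold, and DESeq2 called 0 but gave no adjusted p for Ciita.

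**Figure D4:**
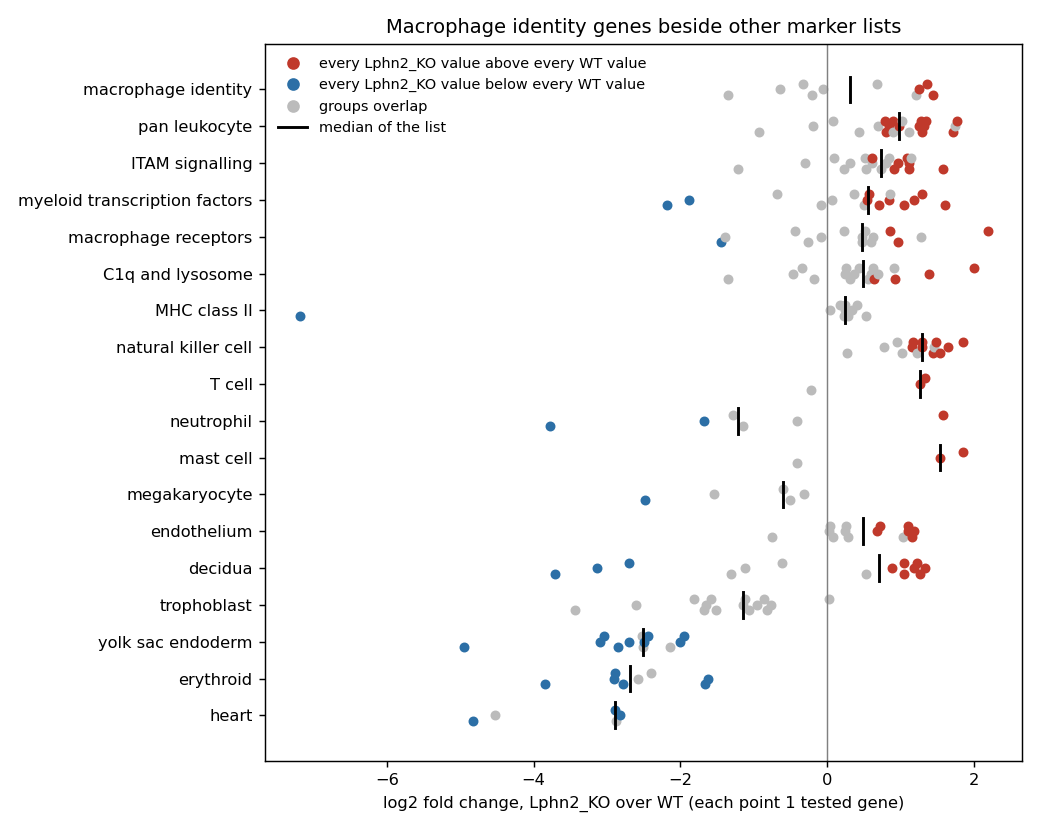
Log2 fold change, Lphn2_KO over WT (x axis), of every tested gene (points) in the macrophage identity list and in lists of related genes and of other cell types, with a black bar at the median of each list; red points have every Lphn2_KO value above every WT value, blue points every one below, and grey points overlap. Medians run from 1.54 for mast cell markers to -2.90 for heart muscle markers, and the point near -7.19 is Ciita, a fitted value for a gene at 0 in Lphn2_KO.

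Markers of natural killer cells stood higher alongside Ptprc, Laptm5, Tyrobp and Fcer1g. All 15 were tested and had a positive log2 fold change (46.6% of all genes did), with a median of 1.29. Without overlap, 9 lay above and 0 below (12.1% and 9.39% of all genes). On the higher side, 8 had an unadjusted p under 0.05 (8.68% of all genes), 0 passed edgeR's threshold and DESeq2 called 6 (3.39%). Their summed level ran from 707.5 to 1188 CPM in Lphn2_KO and from 229.7 to 507 CPM in WT libraries. Gzmc, a granzyme, averaged 395 ± 115 and 141 ± 60.2 CPM, and Il2rb, a chain of the interleukin-15 receptor, 272 ± 43.1 and 121 ± 48.5 CPM. None of the 15 was at 0 in all libraries, and the part of these cells in the values of the 4 genes was not tested.

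Other white blood cells were at low levels by most of their markers. Of 11 T cell genes in the tables, 3 were tested, Cd8a was at 0 in all libraries, and the sums were 11.5 to 27.3 CPM in Lphn2_KO and 12.2 to 15.8 CPM in WT libraries. Of the 3 tested, 2 lay above and 0 below without overlap (12.1% and 9.39% of all genes). With edgeR 0 passed the threshold, and 2 had an unadjusted p under 0.05 on the higher side (8.68% of all genes). Cd247, the zeta chain that natural killer cells share with T cells, averaged 12.9 ± 5.42 CPM in Lphn2_KO and 5.33 ± 1.13 CPM in WT libraries, and the kinase Lck 6.03 ± 2.98 and 6.94 ± 2.85 CPM. The 7 B cell genes summed to 1.1 to 3.1 CPM in Lphn2_KO and 1.5 to 2.7 CPM in WT libraries, with Cd79a and Pax5 at 0 and only Blnk tested. Mast cell genes summed to 126 to 251 and 61.2 to 79.4 CPM, nearly all of it Kit, at 179 ± 60.0 and 61.8 ± 11 CPM, which other cells of the uterus and embryo also make, and Fcer1a and Ms4a2 were at 0. Mcpt8, a protease of basophils, averaged 7.21 ± 2.04 CPM in Lphn2_KO and 2.01 ± 1.25 CPM in WT libraries. Platelet and megakaryocyte genes, which share Fcer1g, had 0 of 5 tested with a positive log2 fold change, and sums of 50.3 to 61.8 CPM in Lphn2_KO and 54.5 to 109 CPM in WT libraries. The platelet receptor chain Gp1bb averaged 39.0 ± 4.35 and 48.3 ± 10.1 CPM, and the platelet receptor Treml1 13.3 ± 3.50 and 20.2 ± 14.7 CPM.

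Markers of other tissues and of red blood cells also stood at different levels in the groups, and their part in the values of the macrophage identity genes was not tested. Endothelial genes, relevant to Lyve1 and Mrc1, had 13 of 14 positive log2 fold changes (46.6% of all genes were positive) and a median of 0.48. Without overlap, 6 lay above and 0 below (12.1% and 9.39% of all genes). Their sums were 3510 to 4107 CPM in Lphn2_KO and 2387 to 3769 CPM in WT libraries. Egfl7 averaged 1416 ± 158 and 879 ± 106 CPM and Pecam1 999.9 ± 220 and 841 ± 289 CPM. Prox1, a lymphatic gene of the list named after its values were seen, was not among the 14 tested. It had 0 counts in every Lphn2_KO library and some in every WT library. Of 14 decidual genes, 7 were above and 3 below without overlap (12.1% and 9.39% of all genes). Their summed level was lower in every Lphn2_KO library, at 8379 to 13579 CPM, against 20831 to 36980 CPM in WT libraries, and most of the WT sum was Prl8a2, at 3171 ± 2041 CPM in Lphn2_KO and 20572 ± 7235 CPM in WT libraries. Des, of the cytoskeleton, stood the other way, at 3027 ± 878 CPM in Lphn2_KO and 1197 ± 283 CPM in WT libraries. Lower medians were found for trophoblast (-1.14, 14 of 15 negative, 0 without overlap), yolk sac endoderm (-2.51, 12 of 12 negative, 9 without overlap), erythroid (-2.68, 8 of 8 negative, 6 without overlap) and heart muscle genes (-2.90, 5 of 5 negative, 3 without overlap). All of those without overlap lay below in Lphn2_KO, as did 9.39% of all genes. Summed levels were 122 to 7198 CPM in Lphn2_KO and 2874 to 10989 CPM in WT libraries for trophoblast and 25.5 to 204 and 437 to 711 CPM for yolk sac endoderm. Erythroid genes summed to 825 to 1449 and 3719.5 to 6475 CPM, and heart muscle genes to 7.80 to 22.3 and 40.8 to 371 CPM. The placental hormone genes Prl3d1 and Prl7a1 averaged 849 ± 1370.5 and 702 ± 1073 CPM in Lphn2_KO and 2674 ± 1621 and 2462 ± 1319 CPM in WT libraries. Of the yolk sac genes, Afp averaged 28.1 ± 41.8 CPM in Lphn2_KO and 242 ± 88.5 CPM in WT libraries, and Rbp4 17.04 ± 18.6 and 112 ± 29.7 CPM. The globins Hba-a1, at 899.9 ± 291 and 2766 ± 1929 CPM, and Hbb-y, at 135 ± 199 and 1016 ± 154 CPM, have near-identical or closely related copies, so their counts are uncertain. Tnnt2, of the heart muscle filament, averaged 10.1 ± 6.70 CPM in Lphn2_KO and 71.1 ± 57.9 CPM in WT libraries, and its partner Actc1 1.22 ± 0.508 and 35.5 ± 49.2 CPM.

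Leaving out Lphn2_KO replicate 1, the library nearest to WT, 2 of the 10 members, Laptm5 and Tyrobp, were higher past the threshold and 0 lower, against 1.77% and 3.27% of the genes tested then. In Lphn2_KO replicates 2 and 3 alone, both values of Cd68 and Fcer1g also lay above every WT value, making 5 of 10 against 22.4% of all genes, and those of Lyve1 below (1 of 10, against 23.5%).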

How the data were processed

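Trizol RNA, 500 ng per sample, entered the Lexogen QuantSeq kit per the labels, a method that reads the 3' ends of polyadenylated transcripts. The authors deposited 1 table per sample of raw counts per gene symbol. Bowtie2, edgeR and mm10 are named in the submitters' processing notes, while the counter, the annotation and the handling of strand and of reads with several matches are not stated in these sources, so tags of overlapping genes cannot be told apart. Ptprc overlaps A130071D04Rik and Mrc1 overlaps Mir511 on their own strand (GENCODE M21).

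Here, genes were kept with filterByExpr (minimum count 10), scaled by TMM and compared with the quasi-likelihood test of edgeR 4.0.16 (R 4.3.3), two-sided, without covariates, with Benjamini-Hochberg adjustment over 13848 genes. DESeq2 1.42.0 and limma 3.58.1 served as alternatives, beside other scalings and filters, and each library was left out in turn. The test was checked on simulated data. Gene spans and promoter windows are from RefSeq on GRCm38.p6 by symbol. Groups came from the titles; no source says that samples came from separate embryos, so p-values measure the spread between samples, which may be technical. Named genes were all members, Adgrl2, up to 4 tested genes with the smallest p in each related list and up to 2 with the highest mean in each list of another cell type; others are said to be chosen after their values were seen. The members and lists were chosen with earlier results of these data known. Values of 1 gene in the lists are not reported here.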

Additional observations from a re-analysis of the deposited data

How the results depend on the processing

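The 5 members with positive log2 fold changes (Ptprc, Laptm5, Tyrobp, Fcer1g and Cd68) stayed positive, and Mrc1, Cx3cr1 and Lyve1 negative, in every alternative that tested them. Aif1 turned to 0.017 with limma-voom and ranged from -0.29 to 0.32 with 1 library left out, and Spi1 from -0.44 to 0.051. Outside DESeq2 and the fit without Lphn2_KO replicate 1, 0 members passed the threshold. The members called higher were 4 with DESeq2 and 0 to 2 with 1 library left out. Members without overlap numbered 3 to 5 above and 0 to 2 below when 1 library was left out, a choice made after seeing the data. Keeping genes at 5 CPM or more in 3 libraries, which removed 3 members (Spi1, Mrc1 and Lyve1), the median of the members was 1.18. Over all genes, DESeq2 called 470 higher and 387 lower, and leaving out 1 library 0 to 252 higher and 0 to 466 lower. No gene was lower with the replicate block (0), nor with 1 symbol kept per identical set (0). The replicate numbers paired the samples weakly, if at all: same-numbered deviations correlated at 0.13, -0.02 and 0.07, and 4 of 6 libraries correlated best with their own number. The replicate block changed no call of a member. Counts of 24 to 44 for Mrc1, 24 to 123 for Lyve1 and 27 to 54 for Spi1 in Lphn2_KO libraries limit what these genes can show.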

Other observations

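Values of a few phagocyte genes, named after they were seen, are given by library. Trem2, a receptor that signals through Tyrobp, stood at 16.2, 58.3 and 64.4 CPM in Lphn2_KO libraries and at 20.9, 34.1 and 24.8 CPM in WT libraries, with Lphn2_KO replicate 1 below all the others. C1qa, a chain of the first complement component, stood at 32.3, 58.7 and 47.97 CPM in Lphn2_KO and 53.6, 26.3 and 23.2 CPM in WT libraries, and so overlapped. Folr2, a folate receptor of resident macrophages, stood at 4.94, 10.8 and 8.98 CPM in Lphn2_KO and 16.3, 4.75 and 8.39 CPM in WT libraries, and both its highest and its lowest value were in WT.

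The calprotectin genes, markers of neutrophils, went apart. S100a8 averaged 3102 ± 872 CPM in Lphn2_KO and 1033 ± 336 CPM in WT libraries (every Lphn2_KO value above), while S100a9 averaged 2.77 ± 1.30 and 8.82 ± 5.54 CPM (every Lphn2_KO value below). Without S100a8, the neutrophil list summed to 4.1 to 9.6 CPM in Lphn2_KO and 18.2 to 33.3 CPM in WT libraries.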
